A study of Mus musculus with 6 samples.

Results

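The 34 genes described here drive or mark cell division: 5 act at the passage from G1 into S phase, 12 belong to DNA replication, and 17 act in S, G2 and mitosis. They were chosen by name, as the non-control probes whose gene name on the array is one of 34 listed symbols, and all 34 had a probe. The array names Cdk1 by its older symbol Cdc2a. They are 34 of the 19598 genes with a probe above background, and 57 probes carry their names.

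Both kidneys of 3 CD-1 mice, an outbred stock, were measured on single-colour Agilent expression arrays, 1 array per kidney. In each mouse (495, 485 and 512) the left ureter was completely tied, which obstructs the left kidney and is used as a model of renal fibrosis. The ligated group is the 3 left kidneys, and the contralateral group is the 3 right kidneys of the same operated animals, so no kidney of an unoperated mouse serves as the reference. Labels describe the material as kidney in one field and as primary cells in others; the time after ligation, age and sex are not given in the sources used here. Every listed marker of proximal tubule, distal tubule and collecting duct, endothelium, fibroblasts and macrophages was above background in all 3 contralateral kidneys. In bulk RNA, fewer cells of a type and less RNA per cell cannot be told apart.

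Dividing cells switch these genes on in a set order. D-type cyclins bind Cdk4 and Cdk6 in G1 and start the inactivation of the retinoblastoma protein, which frees E2F factors such as E2f1 to induce cyclin E and the replication genes. The MCM proteins form the replicative helicase, which Cdc6 and Cdt1 load onto origins, and Pcna is the sliding clamp of the DNA polymerases. Cyclin A, cyclin B and Cdk1 then lead the cell through G2 into mitosis, where kinases, checkpoint proteins and motors sort the chromosomes. The tubule epithelium of an adult kidney divides rarely, and injury is known to bring surviving tubule cells and interstitial cells back into the cycle.

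Values are log2 of the processed signal relative to the 75th percentile of each array, so 0 is the signal at that percentile. That percentile was an intensity of 671.2 to 1105.1 in contralateral and 1067.7 to 1432.8 in ligated kidneys, and 65.71% to 69.46% and 72.08% to 74.65% of spots were well above background. The contralateral kidney of mouse 512 stood apart: for 33 of the 34 genes, all but Ccnd1, it lay above both other contralateral kidneys, against 39.6% of all genes. Its values also exceeded those of its own ligated kidney for 33 genes, all but Ccnd2, against 52.3% of all genes. Mice 495 and 485 share slide 1, while mouse 512 alone is on slide 2, so that slide and mouse 512 cannot be told apart. Counts of members called and the medians of the 3 roles are therefore given with all 3 mice and without mouse 512. For single genes the fit without mouse 512 is given for some only.

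**Figure D1:**
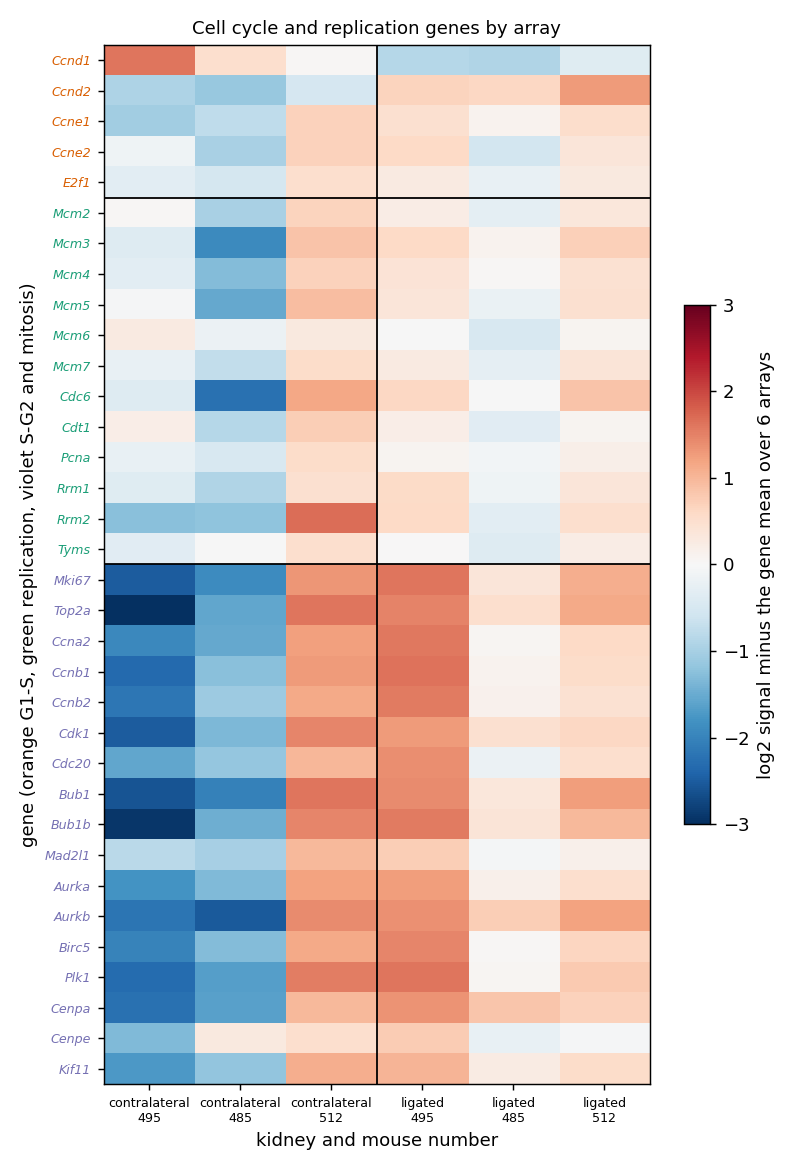
Log2 signal of the 34 genes (rows) on the 6 arrays (columns), each minus the gene's mean over the 6 arrays; red is above and blue below that mean. Apart from Cenpe, which is above its mean in contralateral kidney 485, the mitotic block is blue in contralateral kidneys 495 and 485 and red in the contralateral kidney of mouse 512 and the ligated kidney of mouse 495.

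With all 3 mice, 1 of the 34 genes was called higher in the ligated kidney, Ccnd2, and 0 were called lower, at a limma adjusted p under 0.05 over all genes with the mouse as a block. Among all genes tested, 16.0% were called higher and 14.7% lower. At an unadjusted p under 0.05 there were 2 members, Ccnd2 and Ccnd1. The median difference of ligated minus contralateral was 0.27 for the 5 G1-S genes, 0.35 for the 12 replication genes and 1.53 for the 17 mitotic genes, beside -0.01 for all genes. The mitotic median was 0.46 without mouse 495, 1.51 without mouse 485 and 2.66 without mouse 512, and 0.97 with normexp background correction. With normexp several dim genes had much smaller differences: Kif11 went from 1.21 to 0.07, Cdc6 from 0.99 to 0.05, Bub1 from 2.01 to 0.48, Ccnb1 from 1.53 to 0.34, Aurkb from 2.20 to 0.77, Top2a from 2.09 to 0.97 and Cdk1 from 1.57 to 0.71, while Mki67 was 1.87 and Ccnd2 1.61. The replication median was 0.16, 0.10 and 0.67 without mice 495, 485 and 512, and the G1-S median 0.05, 0.20 and 0.57. These medians hide a split between the animals. In mouse 495 they were 0.74, 0.45 and 3.59, in mouse 485 they were 0.41, 0.72 and 1.58, and in mouse 512 they were -0.21, -0.29 and -0.52. Ligated exceeded contralateral for 31 members in mouse 495 and 30 in mouse 485, but for 1 in mouse 512, where the share over all genes was 47.7%.

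**Figure D2:**
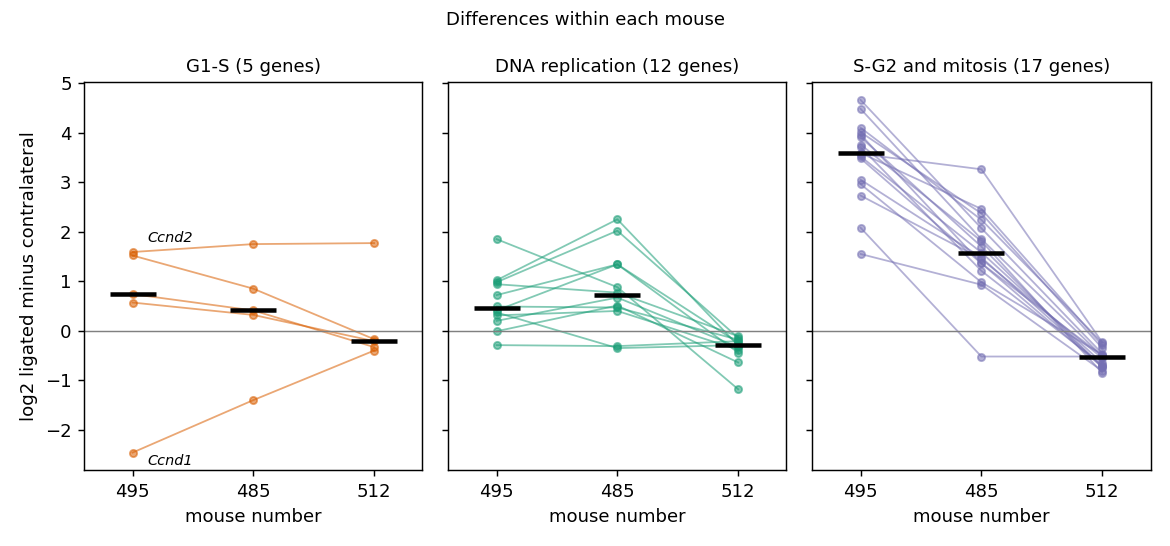
Log2 ligated minus contralateral (vertical axis) within each mouse (horizontal axis, which has no order), with 1 line per gene and a black bar at the median of the group. All 17 mitotic genes are positive in mouse 495 and all are negative in mouse 512, while Ccnd2 lies between 1.59 and 1.77 in each mouse.

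Promoters of the members were read for words known from cell cycle genes, as a description beside the expression values. A link between these words and the expression values was not tested. E2F factors bind sites of the type searched here as TTTCCCGC, TTTCGCGC, TTTGCCGC and TTTGGCGC. The cell cycle genes homology region (CHR), searched as TTTGAA and TTCGAA, is bound by the DREAM and MuvB complexes at genes of G2 and mitosis. Both strands of the RefSeq windows from 250 bases before to 50 after each start were read in build GRCm38.p6; 28 of the 34 genes had a window, and Ccnd1, Ccnd2, Ccne2, Mcm4, Ccna2 and Aurkb had none in the table used. An E2F word stood in 6 of 12 windows of replication genes (Cdc6, Cdt1, Mcm3, Mcm5, Mcm6 and Mcm7) and in 1 of 15 of mitotic genes (Cdk1), against 2.26% of all 32851 windows. A CHR word stood in 11 of 15 windows of mitotic genes and in 2 of 12 of replication genes, against 19.2% of all. The box CCAAT, bound by NF-Y, stood in 13 of 15 and 9 of 12, against 37.4%. None of these words was found in the windows of Ccne1 and E2f1. The lines below give the 160 bases before the start, 5′ to 3′ on the gene's strand, with E2F and CHR words in capitals; adjoining capitals in Mcm5 and Mcm6 are E2F words of both strands that overlap. Cdk1 (chr10:69352913-69353072, minus strand) holds both kinds, Cdc20 (chr4:118437344-118437503, minus) and Kif11 (chr19:37376222-37376381, plus) a CHR word, and Mcm5 (chr8:75109349-75109508, plus) and Mcm6 (chr1:128359706-128359865, minus) E2F words. A match is a description of these letters, not of binding.
Cdk1: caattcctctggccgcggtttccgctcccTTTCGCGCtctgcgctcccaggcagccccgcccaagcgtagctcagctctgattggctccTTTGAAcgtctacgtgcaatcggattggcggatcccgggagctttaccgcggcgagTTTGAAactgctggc
Cdc20: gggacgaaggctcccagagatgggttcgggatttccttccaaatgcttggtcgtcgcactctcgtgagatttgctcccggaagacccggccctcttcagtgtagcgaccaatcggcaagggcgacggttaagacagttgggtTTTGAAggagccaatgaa
Kif11: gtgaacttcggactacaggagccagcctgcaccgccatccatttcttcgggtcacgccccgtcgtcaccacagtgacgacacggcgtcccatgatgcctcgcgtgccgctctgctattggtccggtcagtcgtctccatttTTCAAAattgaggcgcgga
Mcm5: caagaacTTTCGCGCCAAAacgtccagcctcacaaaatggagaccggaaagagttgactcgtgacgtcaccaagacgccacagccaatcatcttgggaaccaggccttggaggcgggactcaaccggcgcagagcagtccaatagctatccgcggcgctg
Mcm6: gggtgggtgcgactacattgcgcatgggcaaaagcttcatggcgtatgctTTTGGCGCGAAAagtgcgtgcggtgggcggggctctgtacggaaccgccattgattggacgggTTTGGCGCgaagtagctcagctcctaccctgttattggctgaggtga

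Among the G1-S genes, the D cyclins differed between the kidneys with opposite signs in every mouse, and the rise of Ccnd2 passed the test. Ccnd2, cyclin D2, stood at -0.70, -0.91 and -0.28 in contralateral kidneys 495, 485 and 512 and at 0.89, 0.85 and 1.50 in their ligated kidneys. Every ligated value lay above every contralateral one, as for 24.7% of all genes. Ccnd2 rose by 1.71 ± 0.14 (SE, n = 3 mice; 3.26-fold, limma adjusted p = 0.022), and the differences of 1.59, 1.75 and 1.77 varied little between mice. Its other 2 probes gave mean differences of 1.65 and 1.47. Its representative probe maps to chromosome 6, 127104788 to 127104847 (mm8).

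Ccnd1, cyclin D1, stood at 3.43, 2.33 and 1.87 in the contralateral kidneys and at 0.97, 0.93 and 1.47 in the ligated kidneys of the same mice. The groups did not overlap, with every ligated value below every contralateral one, as for 28.8% of all genes. The difference was -1.42 ± 0.44 and did not pass (limma adjusted p = 0.074). Within the mice it was -2.46, -1.40 and -0.40, and without mouse 512 it was -1.93 ± 0.31 (adjusted p = 0.0123, n = 2 mice). The contralateral spread (SD 0.80) exceeded the ligated one (SD 0.30), and the contralateral kidney of mouse 495 was the highest of the 6. The single Ccnd1 probe maps to chromosome 7, 144739658 to 144739717 (mm8).

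Ccne1, the cyclin E1 that activates Cdk2 at entry into S phase, stood at -1.80 and -1.52 in contralateral kidneys 495 and 485 and at -0.08 in that of mouse 512. Its ligated values were -0.29, -0.67 and -0.25, so the groups overlapped through mouse 512 alone. With all mice the difference was 0.73 ± 0.37 (limma adjusted p = 0.184), and without mouse 512 it was 1.18 ± 0.22 (adjusted p = 0.0176). A second Ccne1 probe gave a mean difference of 0.15 over all mice, at 0.87, -0.07 and -0.34 in mice 495, 485 and 512. Both fits used the first probe only, so the Ccne1 value depends on the probe. Ccne2, the related cyclin E2, differed by 0.27 ± 0.26 (adjusted p = 0.435); its probe was below background in the contralateral kidney of mouse 485, where the difference was at least 0.19. E2f1, the transcription factor, differed by 0.23 ± 0.21 (adjusted p = 0.423), and its second probe had the opposite sign (-0.09). Both were negative in mouse 512, at -0.33 and -0.21.

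**Figure D3:**
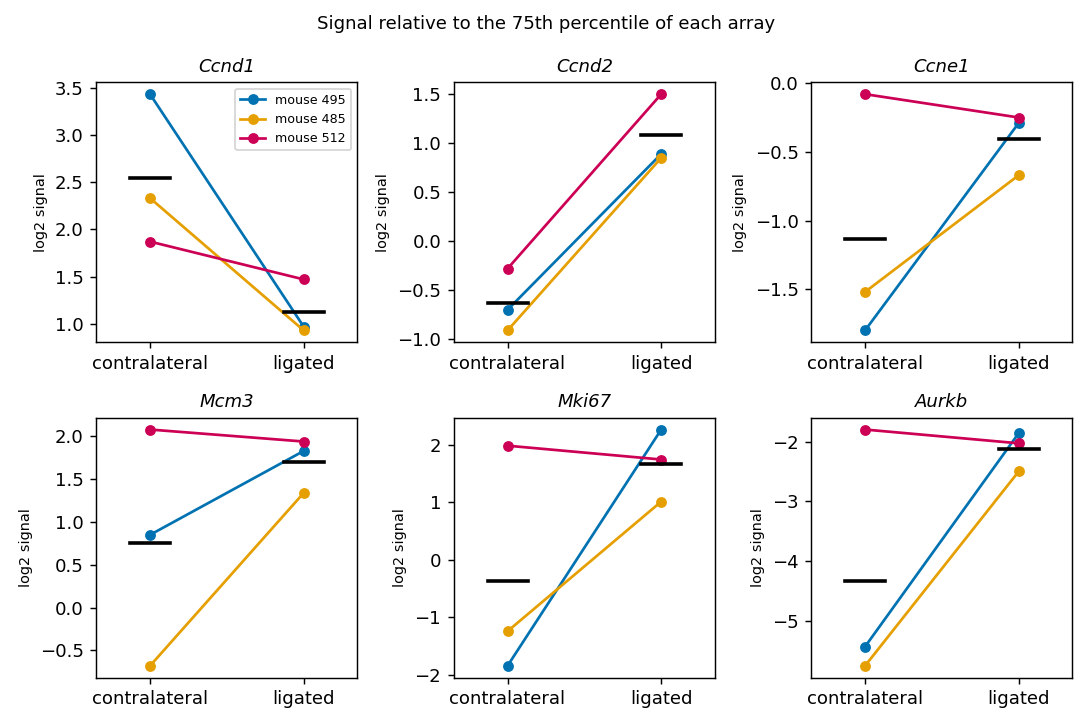
Log2 signal relative to the 75th percentile of each array (vertical axis, scaled per panel) in the contralateral and ligated kidney of each mouse, joined by a line, with black bars at the group means. The lines of Ccnd2 run parallel, those of Ccnd1 all slope down, and in the other 4 genes the line of mouse 512 is nearly level and starts above the other contralateral kidneys.

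Of the 12 replication genes 0 were called with all mice. Their differences lay between -0.29 and 1.85 in mouse 495, between -0.35 and 2.25 in mouse 485, and between -1.18 and -0.11 in mouse 512. Mcm3, a helicase subunit, had the largest difference of the 6 MCM genes: it stood at 0.85, -0.68 and 2.08 in the contralateral kidneys and at 1.83, 1.34 and 1.94 in the ligated kidneys of mice 495, 485 and 512. The 3 ligated kidneys lay close together, and the contralateral kidneys lay on either side of them. The difference was 0.95 ± 0.46 (limma adjusted p = 0.169), and the second Mcm3 probe gave 0.84. Mcm5 stood at -0.01, -1.50 and 0.96 against 0.40, -0.16 and 0.52 (0.44 ± 0.39, adjusted p = 0.401). Mcm4, Mcm7 and Mcm2 differed by 0.60, 0.26 and 0.18. Mcm6 was the exception, at -0.29, -0.31 and -0.21 within the mice (-0.27 ± 0.14, adjusted p = 0.185), and the sign of these small values turned with the scaling for Mcm2, Mcm6 and Mcm7.

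Cdc6, which loads the helicase, stood at -4.34, -6.19 and -2.79 in the contralateral kidneys and at -3.33, -3.95 and -3.09 in the ligated ones. The contralateral kidney of mouse 485 was below background, so its difference was at least 1.94, beside 1.02 in mouse 495 and -0.30 in mouse 512. Its partner Cdt1 differed by -0.05 ± 0.27 and the clamp Pcna by 0.11 ± 0.22. Rrm2, the regulated subunit of ribonucleotide reductase, stood at -2.47 and -2.42 in contralateral kidneys 495 and 485 and at 0.47 in that of mouse 512, above the ligated values of -0.62, -1.54 and -0.71. This gave the lowest difference of any member in mouse 512, -1.18, beside 1.85 and 0.88. The large subunit Rrm1 differed by 0.53 ± 0.27, and Tyms, thymidylate synthase, by -0.09 ± 0.21, with probes of both signs.

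Mitotic genes held the largest differences and the largest disagreement. Mki67, the proliferation antigen Ki-67, stood at -1.84 and -1.24 in contralateral kidneys 495 and 485, and at 1.98 in that of mouse 512. Its ligated values were 2.26, 1.01 and 1.74, so the contralateral kidney of mouse 512 lay among the ligated ones. The differences of 4.10, 2.24 and -0.24 gave a mean of 2.03 ± 0.89 (limma adjusted p = 0.143), and a second Mki67 probe gave 2.13. The representative probe maps to chromosome 7, 135528251 to 135528310 (mm8).

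Top2a, the topoisomerase that untangles replicated chromosomes, stood at -5.83, -4.22 and -1.06 in the contralateral kidneys and at -1.16, -2.15 and -1.52 in the ligated ones. Its contralateral range of 4.77 was the widest of the 34 genes, against 0.99 between ligated kidneys. The lower end of that range is the dim value of contralateral kidney 495, which limits how well its size is known. Within mice 495, 485 and 512 the differences were 4.66, 2.07 and -0.46, with a mean of 2.09 ± 1.05 (limma adjusted p = 0.181). With normexp background correction the mean was 0.97.

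The cyclins and their kinase followed the same order of mice. Cdk1, the kinase of mitotic entry, stood at -5.03, -3.88 and -1.07 in the contralateral and at -1.27, -2.07 and -1.92 in the ligated kidneys. Its difference in mouse 512, -0.85, was the lowest of the 17 mitotic genes. Its cyclin partners Ccnb1, Ccnb2 and Ccna2 differed by 1.53 ± 0.96, 1.41 ± 0.91 and 1.48 ± 0.86, with limma adjusted p of 0.261, 0.27 and 0.23. The 3 Ccnb1 probes gave mean differences between 1.53 and 1.88; the one that stands for the gene was below background in the contralateral kidney of mouse 495, where the difference was at least 3.76.

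Among the mitotic kinases, Aurkb, of the chromosomal passenger complex, was below background in contralateral kidney 485. It stood at -5.43, -5.75 and -1.80 in the contralateral and at -1.86, -2.50 and -2.03 in the ligated kidneys. It differed by 3.57 in mouse 495, by at least 3.26 in mouse 485 and by -0.23 in mouse 512 (fitted mean 2.20 ± 0.87, limma adjusted p = 0.116). Birc5, survivin of the same complex, differed by 3.48, 1.36 and -0.50. Aurka, a spindle pole kinase, gave 3.05, 1.48 and -0.71, and Plk1, the polo-like kinase, 3.91, 1.70 and -0.74. For Plk1 the contralateral values were -2.63, -1.96 and 1.21 and the ligated values 1.28, -0.25 and 0.46, so contralateral kidney 512 lay above 2 of the 3 ligated kidneys.

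Spindle checkpoint genes had the same signs in each mouse. Bub1b, which restrains the anaphase-promoting complex, differed by at least 3.93 in mouse 495, by 1.85 in mouse 485 and by -0.51 in mouse 512. Bub1, a checkpoint kinase, was below background in contralateral kidneys 495 and 485; the differences there were at least 3.75 and 2.37, against -0.35 in mouse 512. Mad2l1, the Mad2 checkpoint protein, gave the smallest differences of the group in mouse 495, at 1.55, with 0.93 and -0.81 in the other mice. Cdc20, the activator that Mad2 holds back, gave 2.96, 0.98 and -0.48.

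Cenpa, the histone of centromeres, stood at -4.64, -4.02 and -1.42 in the contralateral and at -1.05, -1.56 and -1.72 in the ligated kidneys (1.92 ± 0.82, limma adjusted p = 0.136). Kif11, the motor that separates spindle poles, differed by at least 2.69 in mouse 495, by 1.45 in mouse 485 and by -0.55 in mouse 512. The kinetochore motor Cenpe was the exception among the 17: it differed by 2.08 in mouse 495 but by -0.52 in both other mice. Its 3 probes disagreed, since a second gave a mean of 0.29 and the other, above background on 4 arrays, gave 2.04 with 2.30 in mouse 485. The Cenpe value therefore depends on the probe.

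The mouse with the largest difference varied among the genes. For all 17 mitotic genes the difference was largest in mouse 495, then mouse 485, then mouse 512. Cenpe holds this order only before rounding, with -0.52 in both mouse 485 and mouse 512. The same order held for 3 of 12 replication genes (Mcm7, Rrm1 and Rrm2), for 3 of 5 G1-S genes (Ccne1, Ccne2 and E2f1) and for 16.1% of all genes. For 7 of the 12 replication genes the difference was largest in mouse 485, among them Mcm2, Mcm3, Mcm4 and Mcm5, against 31.4% of all genes. The difference between the roles was not tested. In the contralateral kidneys, 15 of 17 mitotic genes were higher in the contralateral kidney of mouse 485 than of mouse 495, whereas 10 of 12 replication genes, all 6 MCM genes included, were lower there. Over all genes the share higher in mouse 485 was 50.6%. Among the ligated kidneys, that of mouse 485 was the lowest for 33 of the 34 genes, and that of mouse 495 was the highest for all 17 mitotic genes. Over all 19598 genes these held for 7777 and 6596. With 1 array per kidney, these orders have no replicate check.

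Over the 3 mice, ligated kidneys were closer to each other than contralateral kidneys were. Contralateral kidney 512 was the highest contralateral kidney for 33 of the 34 genes and so set 1 end of that range. Between mice 495 and 485 alone the order varied by gene. Plk1 stood at -2.63 and -1.96 in contralateral kidneys 495 and 485 and at 1.28 and -0.25 in the ligated ones. Top2a stood at -5.83 and -4.22 against -1.16 and -2.15. The range over the 3 ligated arrays was narrower than over the 3 contralateral ones for 32 of the 34 genes, with medians of 0.78 and 2.66. Over all genes the ligated range was narrower for 75.4%, with medians of 0.35 and 0.68. Against the mean of the contralateral kidneys of mice 495 and 485, the mitotic median reached 2.97 in contralateral kidney 512, 2.35 in ligated kidney 512, and 2.66 over ligated kidneys 495 and 485. For replication genes these were 1.13, 0.93 and 0.67, and for G1-S genes 0.92, 0.90 and 0.57. All 6 MCM genes, and 21 of the 34 members, were higher in the contralateral kidney of mouse 512 than in any ligated kidney, against 38.9% of all genes. Ccnd2 was not: it stood 0.53 above the other contralateral kidneys there, and 2.30 above them in the ligated kidney of mouse 512.

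**Figure D4:**
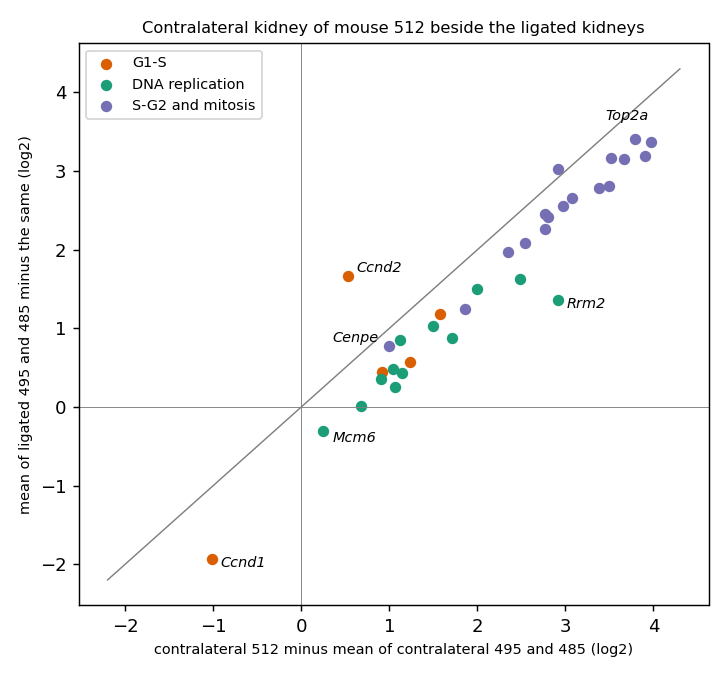
Each point is a gene; the horizontal axis is the contralateral kidney of mouse 512 and the vertical axis the mean of ligated kidneys 495 and 485, both minus the mean of contralateral kidneys 495 and 485 (log2). Both axes subtract the same mean, and the grey diagonal marks equal values; Ccnd2 (0.53 against 1.67) lies far above it and Rrm2 (2.91 against 1.36) far below.

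Without mouse 512, 25 members were called higher in the ligated kidney and 1 lower, Ccnd1, in a limma fit of 2 pairs. In that fit 27.4% of all genes were called higher and 28.9% lower. Mouse 512 was set apart after the values of these same members were seen, with negative differences for all but Ccnd2. Leaving it out raised the mean difference of every member called higher except Ccnd2. The calls therefore describe mice 495 and 485 and are no independent test of the members. The 25 were 16 of 17 mitotic genes, 6 of 12 replication genes (Mcm3, Mcm4, Mcm7, Cdc6, Rrm1 and Rrm2) and 3 of 5 G1-S genes (Ccnd2, Ccne1 and Ccne2). Of these, 7 (Ccne2, Cdc6, Ccnb1, Bub1, Bub1b, Aurkb and Kif11) had passed the filter through the ligated group alone, where they are high, so their calls are no support. Among the 27 members above background on all 6 arrays, 18 were called higher: 11 of 12 mitotic, 5 of 11 replication and 2 of 4 G1-S genes, where 22.7% of the 17335 genes above background on all 6 arrays were called higher and 31.8% lower. Over these 27 the mitotic median was 2.51, from 0.78 for Cenpe, which did not pass, to 3.37 for Top2a (10.3-fold, adjusted p = 0.0219). Mki67 was 9.01-fold higher and Cdk1 6.88-fold. The values of contralateral kidney 495 were dim for Top2a (-5.83) and Cdk1 (-5.03), which limits how well their folds are known. With normexp and all 3 mice their differences went from 2.09 to 0.97 and from 1.57 to 0.71. The replication median over the same genes was 0.48, with Mcm3 at 1.50. With all 3 mice the limma adjusted p was 0.181 for Top2a, 0.143 for Mki67 and 0.246 for Cdk1. Leaving out the contralateral kidney of mouse 512 alone, in an unpaired limma fit of 5 arrays, called 23 members higher and Ccnd1 lower (26.4% and 30.0% of all genes). Of the 23, 17 were among the 27 members above background on all 6 arrays. All 24 calls were shared with the fit of 2 pairs, while Ccne2 (limma adjusted p = 0.224) and Mcm7 (0.106) lost theirs. Both fits hold the arrays of mice 495 and 485 and leave out the same contralateral kidney, so this overlap is no independent support. Leaving out mouse 495 or mouse 485 instead gave 0 calls over all genes in limma; unadjusted p-values fell under 0.05 for 4950 and 4948 genes, with Ccnd2 as the single member in each.

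Other cell cycle genes, from a list of 65 of which 63 were tested (Orc1 and Ttk were not), gave 1 call higher. E2f2, an E2F activator, was higher by 0.64 ± 0.15 (limma adjusted p = 0.0439), with 0.79, 0.51 and 0.62 in mice 495, 485 and 512. The call of E2f2 was lost under several alternatives (adjusted p = 0.184 with no replicate block), and without mouse 495 or 485 it did not pass. Of 30 other mitotic genes none passed, although their median was 1.30, with 3.04, 1.45 and -0.54 in the 3 mice; 29 of them had the order of mice 495, 485, 512. The smallest p among them was that of Spc25, a kinetochore subunit, at -1.13 ± 0.30 (adjusted p = 0.0554), opposite to most of that list. Mcm10, a replication factor singled out after its values were seen, gave -1.87, -3.12 and -0.59 in mice 495, 485 and 512. It did not pass either (limma adjusted p = 0.0634). In mice 495 and 485 its sign was opposite to that of the MCM members except Mcm6, while in mouse 512 every MCM member was negative too. Without mouse 512, 40 of the 63 other cell cycle genes were called higher and 3 lower, against 27.4% and 28.9% of all genes. In mouse 512 the contralateral kidney lay above the ligated one for 55 of the 63. These calls therefore also depend on leaving out that mouse.

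Markers of other cells also differed between the groups. Macrophage, fibroblast, T cell and B cell means were higher in the ligated kidney of mouse 512 too, by 1.48, 2.11, 2.29 and 3.63, where 33 of 34 members were lower. In mouse 495 these differences were 3.60, 2.96, 1.49 and 1.23, and in mouse 485 they were 3.69, 3.68, 1.95 and 1.26, so T and B cell markers differed most in mouse 512. All 8 macrophage markers were tested and 7 were called higher; their mean log2 value was -1.38 and -1.56 in contralateral kidneys 495 and 485, 0.86 in that of mouse 512 and 2.13 to 2.33 in the ligated kidneys. Of 7 fibroblast markers 6 were called higher, with means of -1.29 to 1.14 in contralateral and 2.39 to 3.25 in ligated kidneys. Of 7 T cell markers 4 were called higher (-4.53 to -4.03 against -2.58 to -1.74), and of 5 B cell markers 1 (-4.99 to -4.35 against -3.61 to -1.36), with Blk below background in every contralateral kidney. Of 6 endothelial markers 4 were called higher, with means of -0.70 to -0.24 against 0.10 to 0.41. Of 7 proximal tubule markers 5 were called lower; their mean was 6.15 and 6.37 in contralateral kidneys 495 and 485, 4.15 in that of mouse 512 and 2.36 to 3.35 in the ligated kidneys. Of 6 distal tubule and collecting duct markers 3 were called lower, with means of 2.52 to 4.62 and 1.83 to 2.02. In contralateral kidney 512 the means of 4 lists lay between those of the other contralateral and the ligated kidneys. These were macrophage, fibroblast, proximal tubule, and distal tubule and collecting duct markers. Fibroblast means were 0.27, -1.29 and 1.14 in contralateral kidneys 495, 485 and 512, and distal tubule and collecting duct means 4.62, 4.31 and 2.52. By contrast, T cell (-4.03), B cell (-4.99) and endothelial (-0.70) means of contralateral kidney 512 were close to those of the other contralateral kidneys. Those were -4.05 and -4.53 for T cells, -4.35 and -4.87 for B cells, and -0.24 and -0.60 for endothelium. The part of these cell types in the cell cycle values was not tested.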

How the data were processed

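Cy3-labelled total RNA was hybridised to 6 single-colour arrays, per the labels' protocols. The deposited scanner tables give a processed signal in linear intensity units, which the scanner software had corrected for background and spatial trend, per the file headers. Those headers name Agilent Feature Extraction 10.5.1.1 and the submitters' processing notes version 9.1; this was not resolved. The authors' deposited value table is a ratio of that signal to the array median (62.76 to 175.59). From these files, outlier spots (43 to 79 an array) were dropped, 0 spots being saturated, log2 values were taken relative to the 75th percentile of the array, and replicate spots were averaged. Probes with 0.5 or more of their spots well above background were taken as detected. RefSeq accessions named 24375 of the 41174 probes, 16799 kept the name on the array, and 24 dropped out through outlier flags. Detection on all 3 arrays of either group was required, and each gene was represented by its probe of highest mean signal (19598 genes). Of the 57 member probes 50 passed; 27 members were detected on all 6 arrays, and 7 passed through the ligated group with a contralateral kidney below background. There, "at least" gives the difference from the lowest detected value on that array, or from the value of the probe itself where that is higher.

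Differences (log2, ligated minus contralateral, ± SE) were fitted with limma 3.58.1 in R 4.3.3, using lmFit and two-sided eBayes tests, a term for each mouse and p-values adjusted by Benjamini-Hochberg over all genes. With 2 residual degrees of freedom and 2.06 prior ones, the number of arrays limits the precision, and p-values measure the spread between 3 animals. The script was tested on simulated data. Labels give each kidney the number of its mouse; the deviations of both kidneys from their group means correlated at r = 0.194, 0.481 and 0.271 in mice 495, 485 and 512, above every value between mice. Members, lists, promoter words and tests were chosen with earlier results of these data known. All members are named, and from each list of other cell cycle genes up to 3 called genes of largest change or, with none called, the gene of smallest p; 1 such gene is not reported here. Alternatives covered scaling, background, filter, block, probe rule and each mouse left out. Probe positions are mm8, per the file headers, and promoters RefSeq, GRCm38.p6.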

Additional observations from a re-analysis of the deposited data

How the results depend on the processing

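The call of Ccnd2 held under every alternative that kept 3 mice or left out mouse 512; without mouse 495 or mouse 485 no gene passed. Members called higher ranged from 0 to 25 over the fits that left out 1 mouse and members called lower from 0 to 1, while all genes called ranged from 0 to 11026, other cell cycle genes called higher from 0 to 40 and lower from 0 to 3. Without the contralateral kidney of mouse 512 (unpaired) these counts were 23, 1, 11042, 38 and 4. Centring on the array median called 2 members lower (Ccnd1 and Mcm6), and the mouse as a random block called 1 (Ccnd1). Against 3137 higher and 2882 lower calls over all genes, there were 2566 and 5941 with centring on the median, 2449 and 653 (3102 in all) on the spike-in scale, 1992 and 2772 with normexp, and 1773 and 910 (2683 in all) with no filter. The median of all genes moved from -0.01 to -0.32 with median centring, to -0.18 with normexp, to -0.11 with the filter on all 6 arrays and to 0.31 on the spike-in scale, so small differences are relative to that shift. Other cell cycle genes called higher numbered 2 with quantile normalization, the slide as the block or an intensity trend, and 0 with median centring, no filter, no replicate block or the mouse as a random replicate block. Those called lower numbered 2 with quantile normalization, the spike-in scale, normexp, the filter on all 6 arrays or an intensity trend, 7 with median centring, 0 with no filter, 3 with no replicate block, and 4 with the slide or the mouse as a random replicate block. With no replicate block 5555 genes were called, and the block changed no call of a member; E2f2 lost its call without it and Spc25 gained one.

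The G1-S median turned to -0.03 with quantile normalization or median centring and to -0.02 with normexp. Signs of small, uncalled differences turned as follows. With quantile normalization Ccne2 was -0.10, E2f1 -0.03, Mcm6 0.25, Cdt1 0.15 and Tyms 0.17. With median centring Ccne2 was -0.03, E2f1 -0.08, Mcm2 -0.13, Mcm7 -0.04 and Pcna -0.20. On the spike-in scale Mcm6 was 0.05, Cdt1 0.27 and Tyms 0.23. With normexp Ccne2 was -0.32, E2f1 -0.02 and Cdt1 0.00, and with the mean of the probes Tyms was 0.00. Without the contralateral kidney of mouse 512 Cdt1 was 0.30 and Tyms 0.13. Over the fits that left out 1 mouse, Mcm2 ranged from -0.07 to 0.43, Mcm5 ranged from -0.01 to 0.88, Cdt1 ranged from -0.33 to 0.25, Pcna ranged from -0.04 to 0.36, Rrm2 ranged from -0.15 to 1.36, Tyms ranged from -0.32 to 0.04 and Cenpe ranged from -0.52 to 0.78. The causes were not tested. Dim probes limit the size of differences: contralateral kidneys were below background for 7 members.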
